A study of Mus musculus with 15 samples.

Results

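The accessible regions around Gata6 on chromosome 18 and Gata4 on chromosome 14 were followed across mouse colon cancer organoid lines grown from liver metastases and from primary tumours. The members are the regions whose mm9 interval overlaps a 300 kb window at the Gata6 locus (chr18:10950000-11250000) or a 200 kb window at the Gata4 locus (chr14:63750000-63950000). By that rule 14 of the 43020 regions in the table are members, 4 in the Gata6 window and 10 in the Gata4 window. The rule used position and no measured value, but the windows were chosen with earlier results of these data known. Values are set against the median region of the same chromosome.

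GATA6 and GATA4 are zinc finger transcription factors that bind the same GATA motif and act early in the formation of gut endoderm. In the adult mouse gut, Gata6 is expressed along the whole epithelium including the colon, whereas Gata4 is known as a factor of the proximal small intestine and is normally silent in the colon. ATAC-seq measures where a transposase can insert adapters into open chromatin, such as at promoters and enhancers, and it does not measure transcription.

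The study passed organoids through repeated transplantation into the mouse colon and rederived lines from the tumours each time. The groups Met1, Met2 and Met3 hold organoids rederived from liver metastases after rounds 1, 2 and 3 of transplantation, and the groups Primary2 and Primary3 hold those rederived from colon tumours after rounds 2 and 3. Each group had 3 lines, all labelled with the genotype AKP and with C57Bl6 recipient mice, so that every comparison is between lines of the same labelled genotype. Round 1 primary tumours were not analysed here, and the labels do not tie a line to its parent line. The lines are populations, so a lower signal in a line can come from fewer cells with an open region or from less opening per cell, among other sources. These cannot be told apart, and none was tested.

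The table gave whole-number counts, with library totals between 285633 counts (Primary3 replicate 2) and 5916109 counts (Primary3 replicate 3). Values below are CPM, counts scaled to a common library size by TMM and given per 1e6 counts, and 3 counts correspond to 9.56 CPM in Primary3 replicate 2 and to between 0.516 and 3.4 CPM in the other libraries. Met2 replicate 1 stood apart within its group, with correlations of log2 CPM over 39952 regions of 0.743 and 0.692 with the other Met2 lines, which correlated at 0.844 with each other. So did Met1 replicate 1 (0.723 and 0.719, against 0.897 between the other Met1 lines). Primary3 replicate 2 did as well (0.719 and 0.732, against 0.929 between the other Primary3 lines). No mm9 gene annotation was used, so whether a region lies in a promoter, exon, intron or UTR was not determined, and the labelled cell type was not checked against marker genes. In the RefSeq gene order of GRCm38.p6, used for names only, Gata6 lies between Mib1 and Rbbp8, and Gata4 lies between Neil2 and Blk. No sequence of these regions is shown, and a region is named by its number in the table and its mm9 coordinates.

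All 14 members passed the filter on low counts, peak_28918 through lines of Met2 and Met3 alone. The Gata6 window held few regions, and a single one carried most of its mean signal over the 15 lines. That region, peak_43939 (chr18:11051592-11053497, 1905 bp), averaged 36.6 CPM over the 15 lines and was stronger than 79.8% of the tested regions. The other Gata6 regions averaged between 3.63 CPM (peak_43946) and 9.95 CPM (peak_43937). In the Gata4 window the strongest region was peak_28911 (chr14:63796448-63797248, 800 bp), with a mean of 75.4 CPM, above 94.3% of tested regions. The remaining Gata4 regions averaged between 4.74 CPM (peak_28920) and 39.6 CPM (peak_28904). Per kb of region, the mean level was 19.2 CPM per kb at peak_43939 and 94.2 CPM per kb at peak_28911.

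The Gata6 region peak_43939 lost most of its signal in lines from metastases of rounds 2 and 3. It had 12.6, 5.38 and 8.39 CPM in the Met2 lines, against 34.8, 74.9 and 34.7 CPM in the Primary2 lines. It had 8.50, 4.96 and 4.53 CPM in the Met3 lines, against 64.3, 28.7 and 62.3 CPM in the Primary3 lines. All 6 of these metastasis lines lay below all 6 primary lines. The Met1 lines, from metastases of the first round, had 26, 86.0 and 92.5 CPM and overlapped the primary lines. The group means were 68.2 ± 36.6 CPM in Met1, 8.80 ± 3.64 CPM in Met2 and 6.0 ± 2.18 CPM in Met3, against 48.1 ± 23.2 CPM in Primary2 and 51.8 ± 20.02 CPM in Primary3 (SD, n = 3 each).

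**Figure D1:**
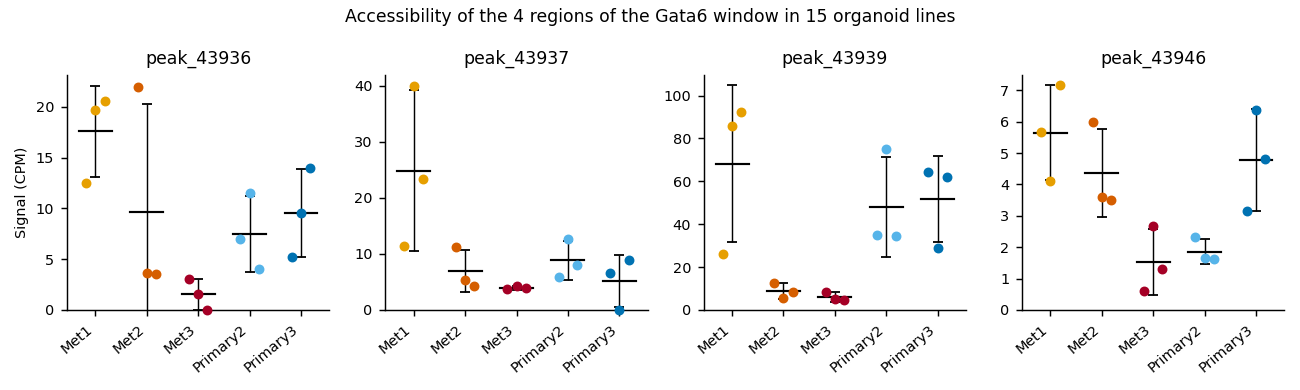
Signal of the 4 regions of the Gata6 window in CPM (y axis, a separate linear scale in each panel) in the 5 groups of organoid lines (x axis). Points are lines, horizontal bars are group means and whiskers are the SD of 3 lines. At peak_43939 the Met2 and Met3 lines lie between 4.53 and 12.6 CPM, below every Met1 and primary line.

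With rounds 2 and 3 combined, peak_43939 was 7.21-fold lower in metastasis than in primary lines, a log2 fold change of -2.85 ± 0.34 (SE) with an adjusted p of 3.81e-06 by edgeR's quasi-likelihood test. This was 1 of 4 Gata6 regions called, all calls in this window being lower, beside 8.98% of all 39952 tested regions called lower and 20.2% called in either direction. The region fell in each round on its own, at -2.49 ± 0.47 in round 2 (edgeR adjusted p = 0.00277), where 6.21% of all regions were called, and at -3.21 ± 0.48 in round 3 (edgeR adjusted p = 0.000262), where 10.2% were called. It ranked 19th lowest of the 1455 tested regions of chromosome 18 and 162nd lowest of all tested regions.

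Chromosome 18 as a whole read lower in the metastasis lines, which bears on every value of the Gata6 window. The median log2 fold change over its 1455 tested regions was -0.41 in rounds 2 and 3 together, with 73 regions called higher and 343 called lower. The shift was uneven along the chromosome. By 10 Mb segments it lay between -0.07, in the segment before the one holding Gata6, and -0.93, in a last segment of 5 regions. It was -0.38 over the 115 regions of the segment holding Gata6. The median signal of the chromosome, on a log2 scale relative to each library's median over all regions, was -0.16 ± 0.02 in the 6 metastasis lines and 0.26 ± 0.07 in the 6 primary lines (SD; exact permutation within rounds, 2-sided p = 0.005, adjusted p = 0.0125 over 20 chromosomes, where 0.005 is the smallest p the design allows). Chromosomes 1, 2, 8, 9, 11, 13 and 17 reached the same p, so it is not particular to chromosome 18. Their differences of metastasis from primary lay between -0.32 (chromosome 8) and 0.24 (chromosome 1), against -0.42 for chromosome 18. When each library's chromosome median was taken out, peak_43939 was still 5.41-fold lower in metastasis lines, with a log2 fold change of -2.44 ± 0.33 and an edgeR adjusted p of 2.61e-05. In that fit 18.7% of all tested regions were called, and 8.5% were called lower.

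The other Gata6 regions were not called with rounds 2 and 3 together, and they did not share a single pattern. At peak_43936 (chr18:11015660-11016470), the signal was 21.9, 3.59 and 3.495 CPM in Met2, against 6.95, 11.49 and 4.03 CPM in Primary2. It was 3.04, 1.53 and 0 CPM in Met3, against 5.24, 9.56 and 13.9 CPM in Primary3. Every Met3 line lay below every Primary3 line, while in round 2 the groups overlapped because Met2 replicate 1 was the highest of all 15 lines. The log2 fold change over both rounds was -1.15 ± 0.54 (edgeR adjusted p = 0.138), and without Met2 replicate 1 it was -1.86 (edgeR adjusted p = 0.00738). In round 3 alone peak_43936 was called lower, at -2.62 ± 0.81 (edgeR adjusted p = 0.0410), so that 2 of 4 Gata6 regions were called in that round, beside 10.2% of all regions. That call did not hold when any 1 of the 6 lines was left out, with values between -3.35 and -2.0, nor without Met1 replicate 2 (edgeR adjusted p = 0.0503) or Primary2 replicate 1 (edgeR adjusted p = 0.0541), nor with the chromosome median taken out (-2.24, edgeR adjusted p = 0.0822, with 9.78% of all regions called).

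At peak_43946 (chr18:11100835-11101170), the weakest of the 14 members, the rounds differed in direction. The Met2 lines had 5.98, 3.59 and 3.495 CPM, all above the Primary2 lines at 2.32, 1.64 and 1.61 CPM. The Met3 lines had 0.607, 2.67 and 1.29 CPM, all below the Primary3 lines at 3.15, 6.37 and 4.82 CPM. Neither round was called, and the difference between the rounds, -2.57 on the log2 scale, had an unadjusted p of 0.0196 and an edgeR adjusted p of 0.703. These values are close to those of a few counts per library. At peak_43937 (chr18:11035119-11036392), the signal was 11.3, 5.38 and 4.19 CPM in Met2, against 5.79, 12.6 and 8.07 CPM in Primary2. It was 3.64, 4.20 and 3.88 CPM in Met3, against 6.64, 0 and 8.94 CPM in Primary3. The groups overlapped in both rounds, and the log2 fold change over both rounds was -0.57 ± 0.43 (edgeR adjusted p = 0.389).

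The first-round metastasis lines differed from the later ones at the Gata6 window. In Met3 against Met1, 3 of the 4 Gata6 regions were called, all lower, beside 9.54% of all regions called in either direction and 3.56% called lower. The values were -3.55 ± 0.48 at peak_43939 (edgeR adjusted p = 9.32e-05), -3.49 ± 0.79 at peak_43936 (edgeR adjusted p = 0.00657) and -2.69 ± 0.59 at peak_43937 (edgeR adjusted p = 0.00523). Chromosome 18 had a median of -0.05 in the same comparison. The last of these calls did not hold without Met1 replicate 2 (-2.18, edgeR adjusted p = 0.0536), and the value at peak_43936 was -4.21 without Met3 replicate 1.

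The levels behind these values did not overlap between Met3 and Met1. The share of all regions without such overlap was not counted, so this describes the levels only. At peak_43936 the highest Met3 line was at 3.04 CPM, against 12.5, 19.7 and 20.6 CPM in the Met1 lines. At peak_43937 the highest Met3 line was at 4.20 CPM, against 11.3, 40.0 and 23.3 CPM in the Met1 lines. At peak_43946 each Met3 line lay below the Met1 lines at 5.66, 4.12 and 7.16 CPM, but the log2 fold change of -1.76 was not called (edgeR adjusted p = 0.119). In Met2 against Met1, 1 of the 4 Gata6 regions was called over all lines, peak_43939 at -3.02 ± 0.46 (edgeR adjusted p = 0.000711), beside 3.55% of all regions. A fit of the Met2 and Met1 lines alone gave -3.0 there, with an edgeR adjusted p of 0.0518. Without Met2 replicate 1, chosen after seeing the data, 3 of the 4 Gata6 regions were called lower, beside 709 of all 41111 regions. There peak_43936 was at -2.32 (edgeR adjusted p = 0.0431) and peak_43937 at -2.39 (edgeR adjusted p = 0.0196). Over all lines these were at -0.91 (edgeR adjusted p = 0.551) and -1.88 (edgeR adjusted p = 0.0633). Without Met1 replicate 1, or without Primary3 replicate 2, 2 Gata6 regions were called lower, beside 409 of 40707 and 386 of 41014 regions.

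Set against the mean of Primary2 and Primary3, the Met1 lines were not lower at the Gata6 window. The value at peak_43939 was 0.44 ± 0.34 (edgeR adjusted p = 0.469). At peak_43937 the Met1 lines were higher, by 1.71 ± 0.45 (edgeR adjusted p = 0.0171), the only Gata6 call of this comparison, in which 9.47% of all regions were called. The median of chromosome 18 was -0.39 in the same comparison, and with the chromosome median taken out peak_43937 was at 2.14 ± 0.45 (edgeR adjusted p = 0.00383, with 8.55% of all regions called). The call was lost without Met1 replicate 2 (1.22, edgeR adjusted p = 0.244) and without Primary2 replicate 1 (1.60, edgeR adjusted p = 0.0510).

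The Gata4 window moved the other way in part of its regions. Of its 10 regions, 4 were called higher in metastasis against primary lines of rounds 2 and 3, beside 11.2% of all regions called higher. The median log2 fold change of the 10 regions was 0.72, against -0.004 over the 1621 tested regions of chromosome 14, of which 155 were called higher and 137 lower. The median signal of chromosome 14 was -0.006 ± 0.046 in metastasis and 0.014 ± 0.110 in primary lines (SD, n = 6 each), and this difference was not distinguishable from 0 (exact permutation within rounds, 2-sided p = 0.69, adjusted p = 0.726). With the chromosome median taken out, 4 Gata4 regions were again called higher, beside 10.2% of all regions. These counts, and those below that include peak_28918, carry a selection. That region passed the filter on low counts only through Met2 and Met3 lines, where it was high.

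The largest change in the window was at peak_28918 (chr14:63861651-63862165, 514 bp). It had 4.65, 18.8 and 28.7 CPM in the Met2 lines, against 1.16, 2.19 and 0 CPM in the Primary2 lines. It had 63.8, 28.6 and 38.2 CPM in the Met3 lines, against 4.90, 0 and 3.10 CPM in the Primary3 lines. Within each round every metastasis line was above every primary line, and only Met2 replicate 1 fell within the range of the primary lines of both rounds. The Met1 lines, at 3.40, 2.54 and 3.58 CPM, lay in the range of the primary lines. Few counts stand behind the low values, with 6 counts in all in the 3 Primary2 lines.

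Over both rounds peak_28918 was 12.8-fold higher in metastasis lines, or 3.68 ± 0.48 on the log2 scale (edgeR adjusted p = 1.34e-05). It was the third highest of the 1621 regions of chromosome 14 and ranked 103rd among all tested regions. The filter on low counts let peak_28918 in only through Met2 and Met3 lines, where it was high. No Met1 or primary line exceeded 4.90 CPM, so its p-values and ranks carry that selection. The log2 fold change was 3.76 ± 0.74 in round 2 (edgeR adjusted p = 0.00387), the only Gata4 call of that round, beside 6.21% of all regions. It was 3.60 ± 0.63 in round 3 (edgeR adjusted p = 0.000917). Without Primary2 replicate 2 the round 2 value was 4.61. Met1 did not differ from the primary mean beyond its error (0.57 ± 0.64, edgeR adjusted p = 0.644). Met3 was above Met1 by 3.77 ± 0.62 (edgeR adjusted p = 0.000588) and Met2 by 2.45 ± 0.63 (edgeR adjusted p = 0.0292). The Met2 call was lost on leaving out Met2 replicate 2 or 3 or Met1 replicate 2 or 3, with values between 1.92 and 2.61.

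**Figure D2:**
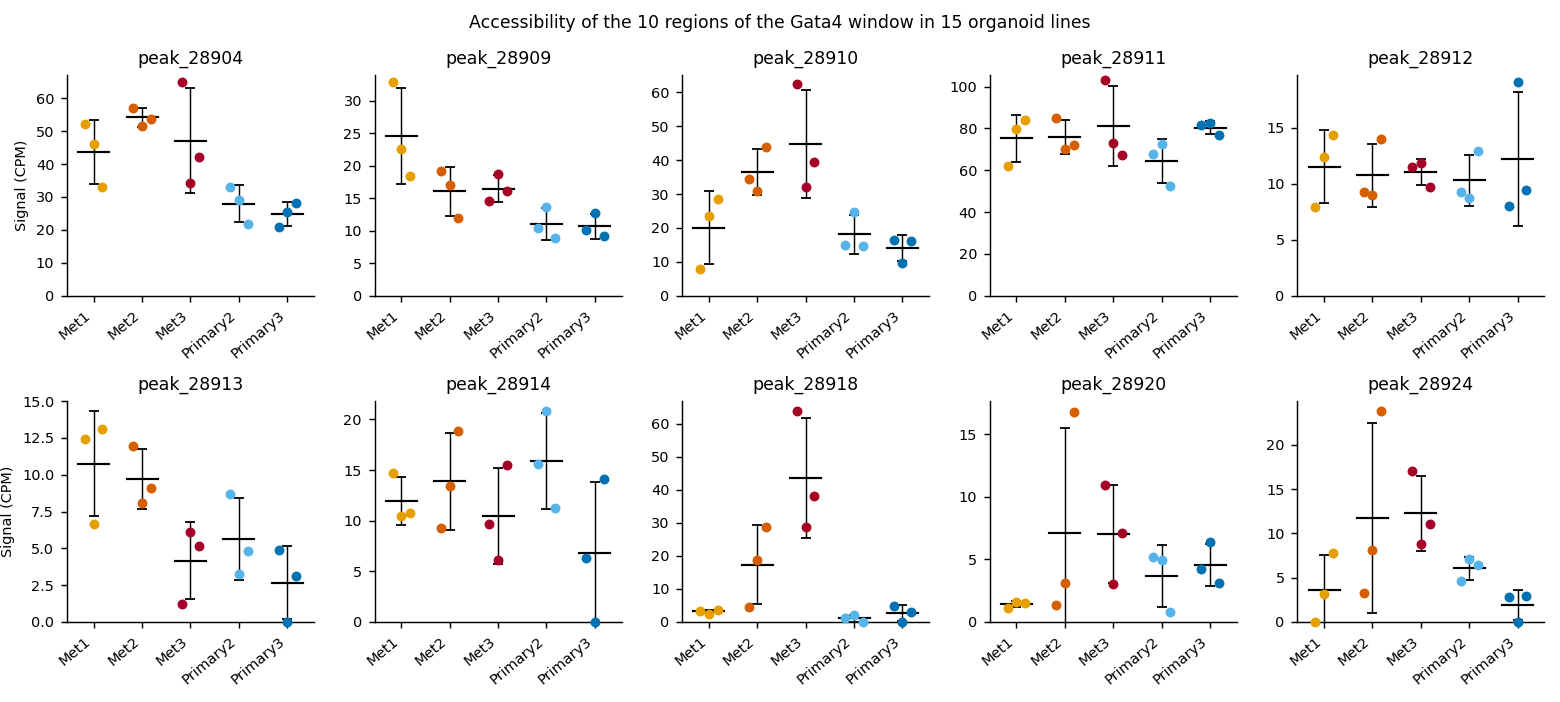
Signal of the 10 regions of the Gata4 window in CPM (y axis, a separate linear scale in each panel) in the 5 groups of organoid lines (x axis). Points are lines, horizontal bars are group means and whiskers are the SD of 3 lines. At peak_28918 the 3 Met3 lines lie between 28.6 and 63.8 CPM and no Met1 or primary line exceeds 4.90 CPM, while at peak_28911 the groups overlap.

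The other regions called higher changed less. At peak_28910 (chr14:63791202-63791755), the Met2 lines had 34.5, 30.9 and 44.0 CPM, against 15.1, 24.6 and 14.5 CPM in Primary2. The Met3 lines had 62.6, 32.05 and 39.5 CPM there, against 16.4, 9.56 and 16.0 CPM in Primary3. All 6 metastasis lines were above all 6 primary lines, while the Met1 lines, at 7.93, 23.5 and 28.6 CPM, spanned the primary range. The log2 fold change was 1.27 ± 0.28 over both rounds (edgeR adjusted p = 0.00216). In round 3 it was 1.55 ± 0.40 (edgeR adjusted p = 0.0144), which with peak_28918 made 2 of 10 Gata4 regions called in that round, beside 10.2% of all regions. The round 3 call was lost without Met3 replicate 1, Primary3 replicate 1 or Primary3 replicate 3, with values between 1.22 and 1.62.

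The second such region, peak_28904 (chr14:63749447-63751600), crosses the start of the window. It had 57.1, 51.6 and 53.8 CPM in Met2, against 33.0, 29.0 and 21.8 CPM in Primary2. It had 65.0, 34.3 and 42.1 CPM in Met3, against 21.0, 25.5 and 28.2 CPM in Primary3. Every metastasis line of rounds 2 and 3 was again above every primary line. The log2 fold change was 0.93 ± 0.21 over both rounds (edgeR adjusted p = 0.00281). Neither round passed on its own (edgeR adjusted p = 0.0550 in round 2 and 0.0544 in round 3), although round 2 passed with the chromosome median taken out (1.07, edgeR adjusted p = 0.0306, with 5.58% of all regions called). The Met1 lines had 52.1, 46.0 and 33.1 CPM and also lay above every primary line, the lowest of them narrowly. Met1 against the primary mean was at 0.70 ± 0.25, not called (edgeR adjusted p = 0.0781). Met3 against Met1 was at 0.12 ± 0.29 (edgeR adjusted p = 0.852).

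The last region called, peak_28924 (chr14:63927643-63928230), rested on low signal. It had 3.32, 8.07 and 23.8 CPM in Met2, against 4.63, 7.11 and 6.45 CPM in Primary2. It had 17.0, 8.77 and 11.0 CPM in Met3, against 2.80, 0 and 2.92 CPM in Primary3. The groups overlapped in round 2 and did not overlap in round 3, and the Met1 lines had 0, 3.17 and 7.76 CPM. The log2 fold change was 1.57 ± 0.52 (edgeR adjusted p = 0.0349), and the call was lost in 9 of the 12 fits that left out 1 line of rounds 2 or 3, with values between 1.07 and 1.66. It was kept without Met2 replicate 1, Met2 replicate 2 or Met3 replicate 2.

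At peak_28909 (chr14:63783152-63784234), the Met1 lines had 32.8, 22.5 and 18.5 CPM and exceeded all primary lines, which ran between 8.87 and 13.7 CPM. The difference of Met1 from the primary mean was 1.18 ± 0.33 (edgeR adjusted p = 0.0251), the only Gata4 call of that comparison. This 1 of 10 regions was near the 9.47% called over all regions. It was lost without Met1 replicate 1 or 2, Primary2 replicate 1 or 3 or Primary3 replicate 1 or 3, with values between 0.95 and 1.25, and also without the 2 shallowest libraries, Met1 replicate 1 and Primary3 replicate 2. In rounds 2 and 3 the same region had 19.3, 17.0 and 11.9 CPM in Met2, against 10.4, 13.7 and 8.87 CPM in Primary2. It had 14.6, 18.7 and 16.2 CPM in Met3, against 10.1, 12.7 and 9.11 CPM in Primary3. The groups overlapped in round 2 and not in round 3, and the log2 fold change of 0.63 ± 0.29 was not called (edgeR adjusted p = 0.131).

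The strongest Gata4 region showed no difference beyond the spread of its lines. At peak_28911 the signal was 85.0, 70.4 and 72 CPM in Met2, against 67.8, 72.8 and 52.4 CPM in Primary2. It was 103.3, 72.9 and 67.3 CPM in Met3, against 81.8, 82.8 and 76.7 CPM in Primary3, and the Met1 lines had 62.3, 79.6 and 83.8 CPM. The groups overlapped in both rounds, and the log2 fold change was 0.12 ± 0.16 (edgeR adjusted p = 0.652). It lies 4693 bp beyond peak_28910, which was called higher. The remaining regions peak_28912, peak_28913, peak_28914 and peak_28920 were not called in any comparison. Over the 15 lines peak_28912 ran between 7.93 and 19.1 CPM, peak_28913 between 0 and 13.1 CPM and peak_28914 between 0 and 20.8 CPM. The region peak_28920 was at 0.82 on the log2 scale over both rounds (edgeR adjusted p = 0.344) that was 0.04 without Met2 replicate 3.

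**Figure D3:**
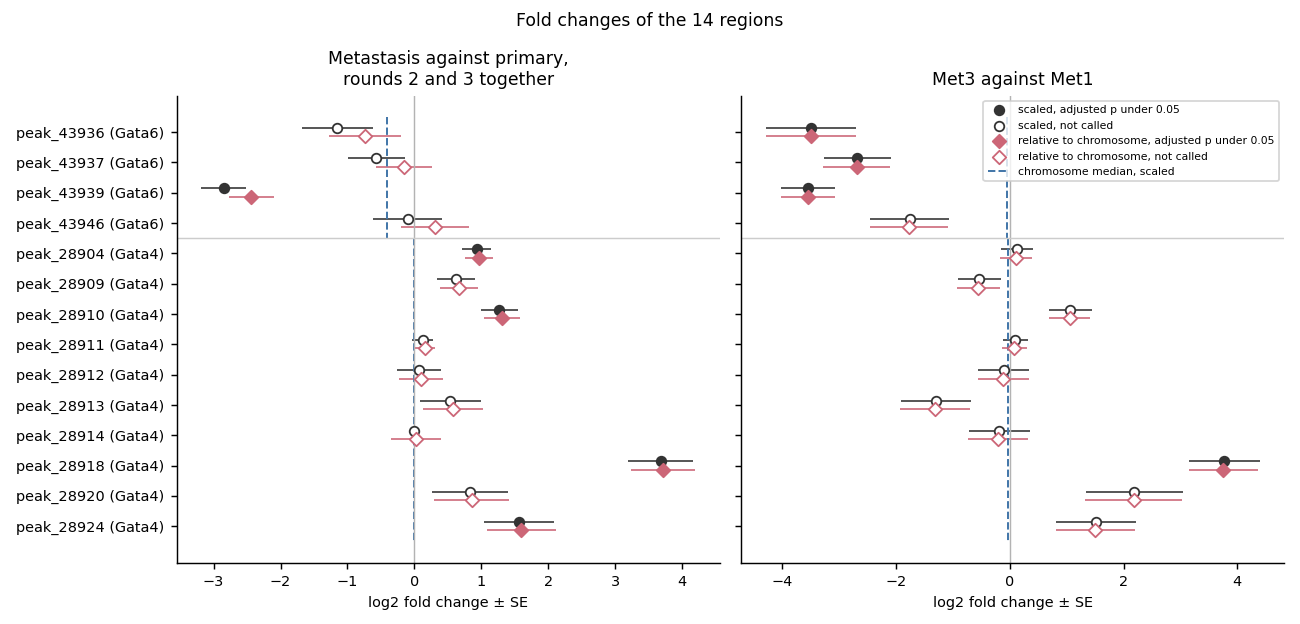
Log2 fold changes with their SE (x axis) of the 14 regions (y axis) for metastasis against primary lines in rounds 2 and 3 together (left) and for Met3 against Met1 (right). Circles are the scaled fit, diamonds the fit with chromosome medians removed, filled symbols have an edgeR adjusted p under 0.05, and dashed lines mark the median of the region's own chromosome. On the left peak_43939 is at -2.85 and peak_28918 at 3.68, both far from their chromosome medians of -0.41 and -0.004.

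Lines were also counted without a model. Within each of rounds 2 and 3, every metastasis line was above every primary line at peak_28904, peak_28910 and peak_28918, beside 5.77% of all tested regions. Every metastasis line was below every primary line at peak_43939 alone, beside 4.96% of all tested regions. No member was called in Met3 against Met2, in Primary3 against Primary2 or in the difference between rounds, where edgeR called 0 regions of the whole table. At an unadjusted p under 0.05 in edgeR, 2 members passed in Met3 against Met2, beside 2926 of all 39952 regions. None passed in Primary3 against Primary2, beside 2646 regions, and 2 in the difference between rounds, beside 2568. DESeq2 called none of the 14 in these comparisons, and 44, 54 and 15 of all regions in turn.

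Summed over each window, the loci ran in opposite directions between metastasis and primary lines of rounds 2 and 3. In Met1 the mean sum was above that of the primary groups in both windows. The Gata6 window summed to 116.2 ± 52.7 CPM in Met1, 29.8 ± 19.1 CPM in Met2 and 13.0 ± 3.06 CPM in Met3, against 66.3 ± 29.8 CPM in Primary2 and 71.3 ± 23.7 CPM in Primary3 (SD, n = 3 each). The Gata4 window summed to 206.1 ± 10.4 CPM in Met1, 253.0 ± 34.6 CPM in Met2 and 278.0 ± 72.2 CPM in Met3, against 164.0 ± 27.3 CPM in Primary2 and 160.8 ± 4.84 CPM in Primary3. Relative to the chromosome median, the mean log2 difference of metastasis from primary lines in rounds 2 and 3 was -1.42 for the Gata6 sum and 0.72 for the Gata4 sum. These sums are given without a test. By group mean, peak_43939 made up most of the Gata6 counts in Met1, Primary2 and Primary3, but 32.4% in Met2 and 45.9% in Met3. With the median of the 4 regions in place of their sum the Gata6 difference was -0.59.

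The share of each window's counts taken by its most changed region differed between groups. The region peak_43939 took 56.3 ± 8.8% of the Gata6 window's counts in Met1, 32.4 ± 9.5% in Met2 and 45.9 ± 8.4% in Met3, against 72 ± 2.4% in Primary2 and 71.5 ± 8.6% in Primary3 (SD, n = 3 each). In the Gata4 window, peak_28918 took 1.54 ± 0.28% in Met1, 6.64 ± 4.12% in Met2 and 15.3 ± 2.44% in Met3, against 0.616 ± 0.587% in Primary2 and 1.64 ± 1.54% in Primary3. Both shares describe regions picked for the size of their change.

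Set side by side per kb of region, the Gata4 region peak_28918 exceeded the Gata6 region peak_43939 in all 6 lines of Met2 and Met3 and in none of the 9 lines of Met1, Primary2 and Primary3. In Met2 peak_28918 had 9.04, 36.6 and 55.8 CPM per kb, beside 6.62, 2.82 and 4.40 CPM per kb at peak_43939. In Met3 it had 124.1, 55.7 and 74.3 CPM per kb, beside 4.46, 2.60 and 2.38 CPM per kb. In Met1 it had 6.61, 4.94 and 6.97 CPM per kb, beside 13.7, 45.1 and 48.5 CPM per kb. The pair was chosen for opposite changes, so this order is a description.

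**Figure D4:**
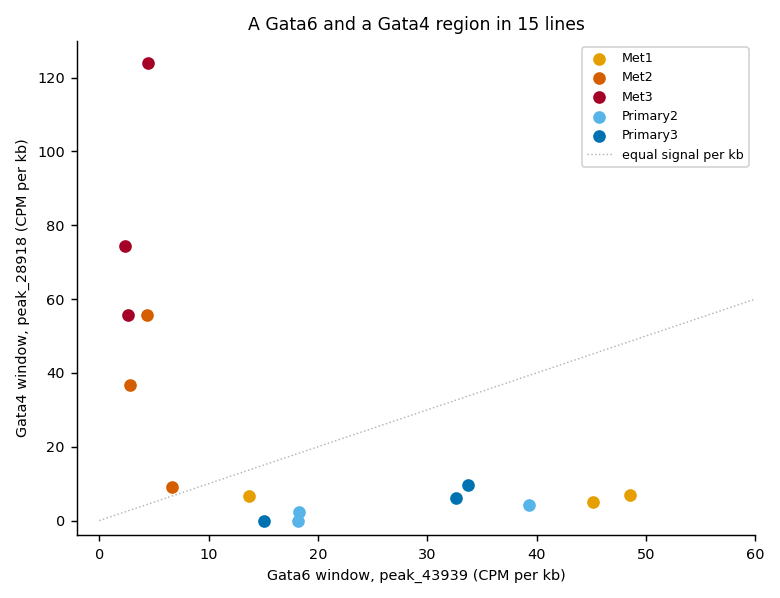
Signal per kb of the Gata4 region peak_28918 (y axis, CPM per kb) against the Gata6 region peak_43939 (x axis, CPM per kb) in the 15 organoid lines, coloured by group. The dotted line marks equal signal per kb, and the 6 lines of Met2 and Met3 lie above it while the other 9 lie below it.

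The regions around the windows were read in the same comparison. In the 300 kb before the Gata6 window, 9 tested regions had a median log2 fold change of -0.69 over both rounds, with 2 called lower. In the 300 kb after it, 2 tested regions had values of -0.69 and 0.29, neither called. Within 2 Mb of peak_43939, 92 other regions had a median of -0.42, near the chromosome's own median, with 4 called higher and 15 lower and values between -2.38 and 3.17. Around the Gata4 window the median changed sign on both sides. The 5 regions in the 200 kb before it had a median of -0.38, the 4 in the 200 kb after it a median of -1.01, and the 10 inside a median of 0.72. Within 2 Mb of peak_28918, 81 other regions had a median of -0.04, with 7 called higher and 5 lower and values between -3.10 and 2.00.

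**Figure D5:**
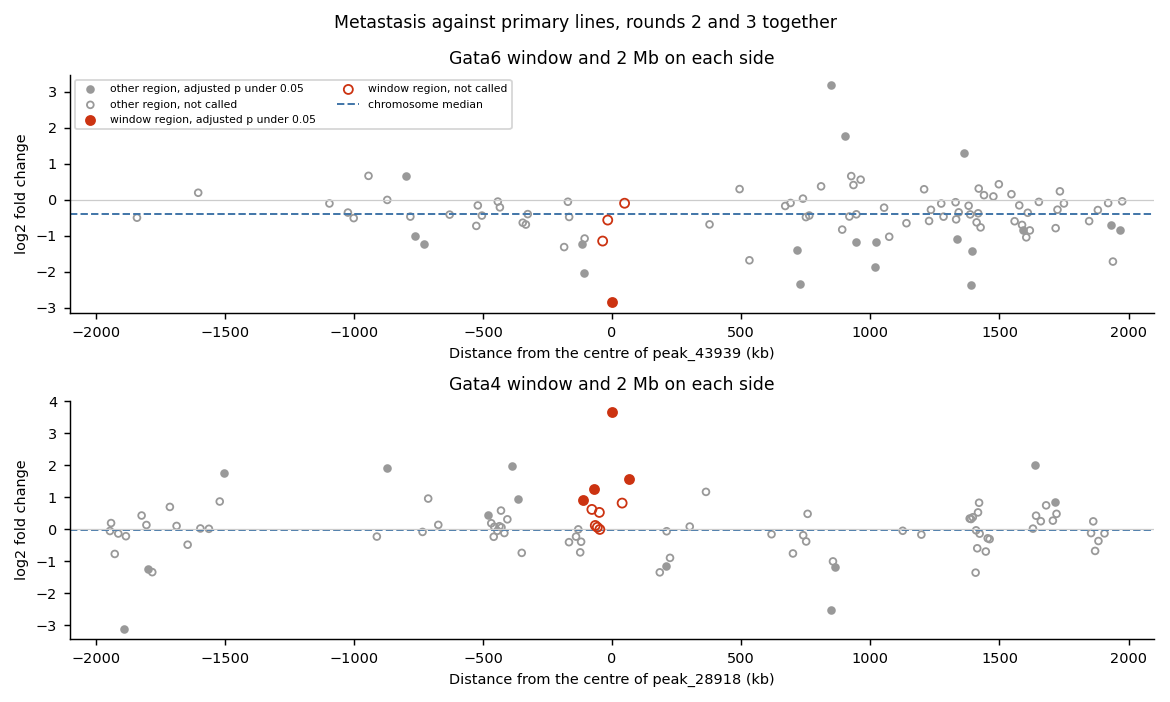
Log2 fold change of metastasis against primary lines in rounds 2 and 3 together (y axis) by distance from the centre of peak_43939 (top) or peak_28918 (bottom) (x axis, kb). Each point is a tested region within 2 Mb, red for members and grey for others, filled where the edgeR adjusted p was under 0.05, and the dashed line is the chromosome median. At Gata6 the lowest member is at -2.85 among neighbours with a median of -0.42, and at Gata4 the highest member is at 3.68 among neighbours with a median of -0.04.

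Across the 15 lines, a few regions on other chromosomes followed the same pattern of log2 CPM as the strongest member. For peak_43939 the most alike were peak_31322 (chr15:37699398-37699938, Pearson r = 0.958), peak_29384 (chr14:70474324-70475105, r = 0.934) and peak_25971 (chr13:101119559-101120301, r = 0.928). For peak_28911 they were peak_39922 (r = 0.903), peak_93399 (r = 0.856) and peak_74465 (r = 0.848). For peak_28918, looked up after its values were seen, they were peak_43721 (r = 0.960), peak_1524 (r = 0.956) and peak_5348 (r = 0.954). Within the Gata4 window peak_28918 and peak_28910 had an r of 0.806 over the 15 lines, and within the Gata6 window peak_43939 had an r of 0.731 with peak_43936, 0.507 with peak_43937 and 0.335 with peak_43946. These values share the same libraries, depths and groups and describe the likeness only.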

How the data were processed

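ATAC-seq counts for 15 organoid lines in 5 groups of 3 were taken from a single table. The authors deposited whole-number counts for 43020 regions, the same intervals in every library. The genome build mm9 and the tools bedtools, Bowtie, MACS2, Picard and SAMtools are named, without roles, in the submitters' processing notes. Handling of the transposase offset, of duplicates and of mitochondrial reads: not given in the sources used here. Groups and replicate numbers come from the sample titles. The design text describes multiple separate lines, and p-values measure the spread among these lines only.

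Regions were kept by filterByExpr in edgeR 4.0.16 (minimum count 10, minimum total count 15), which left 39952 (92.9%). Libraries were scaled by TMM, and a quasi-likelihood model with 5 group means was fitted with robust dispersion (limma 3.58.1, R 4.3.3), with Benjamini-Hochberg adjustment over all tested regions and a threshold of 0.05. Metastasis against primary in rounds 2 and 3 together is the mean of both rounds' differences. A second fit put each library's chromosome median into the offset. Standard errors come from the fold change and F statistic. CPM are counts per scaled library, and a prior count of 2 entered log2 CPM. Intervals and the limit of 3 counts cover counting error only. The fits were tested on simulated data.

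Every member is accounted for. Those named with values are the 5 with the highest mean CPM in each window, the members called in rounds 2 and 3 together and those called in another comparison, and the others are given by range. The windows, the tests and the rule for naming regions were chosen with earlier results of these data known. Alternatives were other scalings and filters, only the groups compared, DESeq2 1.42.0, a replicate block, fits without the 2 shallowest libraries and fits leaving out each line. Tables and figures were made with matplotlib 3.10.9, pandas 2.3.3, numpy 2.4.6 and scipy 1.17.1 in Python 3.11.15.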

Additional observations from a re-analysis of the deposited data

How the results depend on the processing

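Of 19 called values of single regions, recomputed under 318 alternatives, 282 kept their direction and call, 36 lost the call and none changed sign. The calls at peak_43939 and peak_28918 over rounds 2 and 3 together were kept throughout. At peak_28918 the fits with a count filter carry the selection given above. Of 9 values not called, 15 of 186 recomputed values changed sign, all at regions whose reported value lay between -0.10 and 0.07, and 1 became called. For peak_28914 the value was -0.039 with library totals, -0.0014 without a filter, -0.0018 with a minimum count of 20, -0.13 without the 2 shallowest libraries, -0.018 with only the groups compared, and -0.20 to 0.43 on leaving out a line. For peak_28912 leaving out a line gave -0.047 to 0.19, and for peak_43946 it gave -0.48 to 0.062, against 0.31 with chromosome medians removed. The cause was not tested.

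The 2 Gata6 calls in Met3 against Primary3 became 1 with the replicate block, without the 2 shallowest libraries, with chromosome medians removed and on leaving out any of the 6 lines of round 3. Leaving out a line of the groups compared gave 1 to 2 Gata6 calls over rounds 2 and 3 together, with and without the chromosome medians, and 0 to 1 in Met1 against primary. In Met2 against Met1, DESeq2 called 2 Gata6 regions. Leaving out a line of these groups, chosen after seeing the data, gave 1 to 3 Gata6 calls, with 3 without Met2 replicate 1, and 0 to 1 Gata4 calls, and leaving out the 2 shallowest libraries gave 2 Gata6 calls. A fit of only these groups called 0 in either window, beside 58 of 35827 regions (unadjusted p under 0.05 at 2 Gata6 and 0 Gata4 regions, beside 4284 of all). The Gata4 count in Met2 against Primary2 was 2 with DESeq2 size factors, a minimum count of 20, no shallow libraries, DESeq2's test or chromosome medians removed. It was 0 with only the groups compared (2 at an unadjusted p under 0.05, beside 6713 of 33476 regions), where peak_28918 did not pass the filter. The Gata4 count in Met3 against Primary3 was 4 with only the groups compared and with DESeq2, and 1 to 3 on leaving out a line of round 3. In Met1 against primary it was 0 without the 2 shallowest libraries, 2 with DESeq2 and 0 to 1 on leaving out a line of its groups. Lines outside a comparison also moved counts: over all 15 such fits the Gata6 count was 1 to 2 in Met3 against Primary3, and the Gata4 count was 1 to 4 there and 1 to 2 in Met2 against Primary2. The Gata6 window's difference was -0.59 with the median of its regions in place of their sum.

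Replicate numbers did not pair the lines: 2 of 30 same-numbered pairs had deviations correlated above 0.1 (range -0.214 to 0.156), and 7 of 30 matched their own number best. With the replicate block, 7273 regions were called over rounds 2 and 3 together, against 8080 without it. Depth limits peak_43946, peak_28920 and the low groups of peak_28918 and peak_28924, where a few counts decide a value.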
